A study of Danio rerio with 24 samples.

Results

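The genes described here encode the enzymes that place methyl groups on histone lysines and those that take them off, as measured by RNA sequencing of zebrafish liver. They were chosen by symbol. A gene was taken if its symbol begins with kmt, kdm, setd, setdb, ezh, ehmt, suv39h, nsd followed by a digit, or smyd, or is dot1l or ash1l, and if it had at least 10 counts in at least 6 of the 24 fish. Of 32520 genes in the files, 64 carried such a symbol and 59 passed the count rule, namely 38 methyltransferases, or writers, and 21 demethylases, or erasers. All 59 were also among the 16223 genes tested. The 5 genes left out were setd1bb, kmt5ab, SETD6, a copy of SUV39H1 (ENSDARG00000026799) and a copy of SMYD1 (ENSDARG00000091253), which reached 10 counts in at most 3 fish. Just inside the rule were SETD9, with 10 counts in 9 fish and a range of 2 to 18 counts, and NSD2, with 10 counts in 10 fish and a range of 0 to 43 counts. Where a symbol belongs to more than 1 gene, the Ensembl identifier is given, and writing in capitals or lower case follows the gene table and has no meaning.

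The study combined swim training with overfeeding. The groups were OF-training, overfed and trained; NF-training, normally fed and trained; OF-control, overfed and untrained; and NF-control, normally fed and untrained, with 6 fish of the ABTL strain in each, 3 males and 3 females. Trained fish swam 20 sessions over 8 weeks. Overfed fish received 9 mL of shrimps each, spread over the morning, and normally fed fish received less. All were kept at 28 °C with 6 fish per tank and were fasted overnight before sacrifice. The tank of each fish is not given and a group also held 6 fish, so that group and tank cannot be told apart, and p-values measure the spread between fish.

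Histone methylation is read by the cell as a mark whose meaning depends on the lysine. Methyl groups on lysines 4, 36 and 79 of histone H3 are found at transcribed genes, whereas those on lysines 9 and 27 of H3 are known for silencing, and lysine 20 of histone H4 is marked during the cell cycle and in compacted chromatin. Writers draw their methyl group from S-adenosylmethionine, which the liver makes in large amounts. Erasers of the KDM1 type use flavin, and the Jumonji erasers use iron, oxygen and 2-oxoglutarate. Many mammalian genes of the family have more than 1 copy in zebrafish.

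The libraries were even in depth, with 19315642 to 21399321 estimated counts per fish. Hepatocyte markers marked the tissue as liver, with all 12 listed genes detected and a summed level of 27860 to 141400 counts per 1000000 (CPM). Females differed from males in vitellogenin, the egg yolk precursor, which took 29.3% to 74.5% of counts in females and at most 0.159% in males. Of the females, NF-training 3 (29.3%) and NF-control 1 (45.8%) stood apart from the other 10 (58% to 74.5%). On the first principal component, which carried 41.2% of the variance, males and females separated, with 0.912 of its variation lying between the sexes. All CPM values below were scaled by the trimmed mean of M values (TMM), and the tests are those of edgeR's quasi-likelihood model with Benjamini-Hochberg adjustment over all genes tested and a threshold of 0.05.

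Most of the enzymes were expressed at a low and steady level. Compared per length, as the mean over 24 fish of the deposited transcripts per 1000000 (TPM), the median over the 59 genes was 2.32, against 2.58 over all genes tested. There were 12 genes under 1 TPM, 37 between 1 and 5 TPM and 10 above 5 TPM. These TPM include vitellogenin, which lowers the values of all other genes in females, so that the bins would shift upward without it. The spread between fish of the same group and sex was small, with a median residual SD of 0.31 on the log2 CPM scale against 0.47 over all genes tested. The genes were not matched by number of counts, and its part in this difference was not tested. The steadiest were kmt2ba and a copy of KDM5B (ENSDARG00000003098), both with a residual SD of 0.15, chosen after their values were seen.

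**Figure D1:**
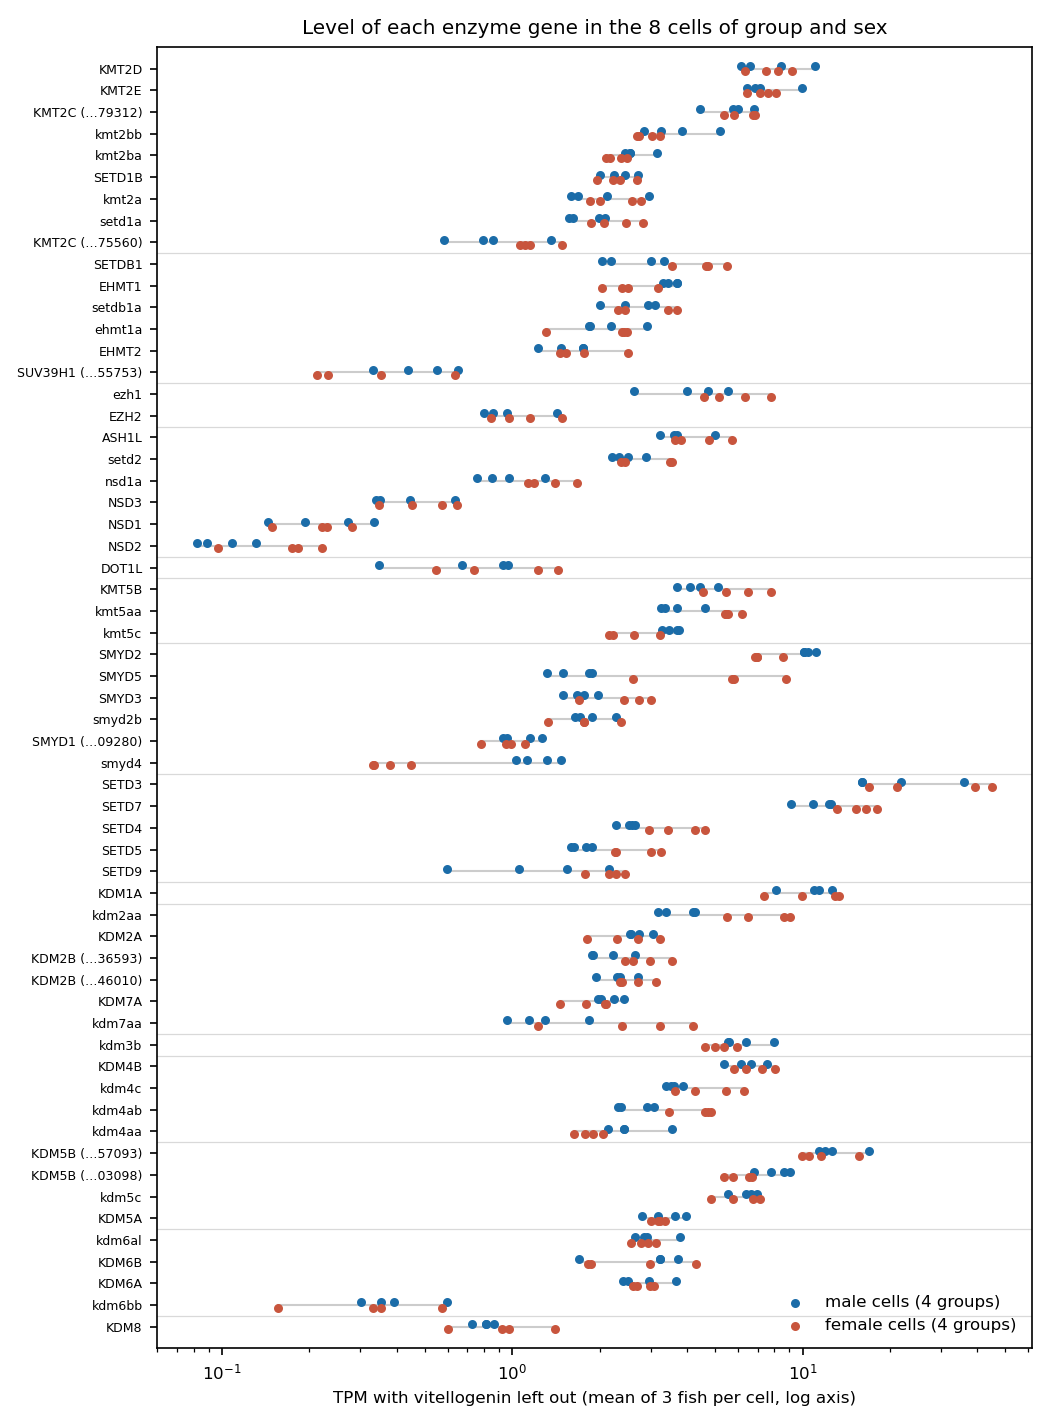
Level of each of the 59 genes in TPM, with vitellogenin left out of the total (log axis). Points are means of 3 fish in the 4 male cells (blue) and the 4 female cells (red), and grey lines join the lowest and highest cell. SETD3 lies highest and NSD2 lowest.

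Among the writers, SETD3 had the highest mean level, 21.4 TPM. In mammals it methylates a histidine of actin, so that its place among histone enzymes rests on its SET domain. It was followed by SETD7, a monomethyltransferase of H3K4 and of other proteins, with 10.8 TPM, and SMYD2, a writer of H3K36 and of non-histone lysines, with 7.65 TPM. In the other writer classes the leading genes were KMT2D (6.64 TPM), the enhancer methyltransferase of H3K4, KMT5B (4.16 TPM) for H4K20, ezh1 (4.13 TPM) of Polycomb repressive complex 2 (PRC2), ASH1L (3.44 TPM) for H3K36 and SETDB1 (2.84 TPM) for H3K9. DOT1L, the sole writer of H3K79, had 0.684 TPM. These levels spanned a wide range within a class, since NSD2, another writer of H3K36, had 0.116 TPM.

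Among the erasers, a copy of KDM5B (ENSDARG00000057093), which removes methyl groups from H3K4, had 10.6 TPM, and KDM1A, the flavin enzyme LSD1, had 9.03 TPM. The leading genes of the other classes were KDM4B (5.48 TPM), for H3K9 and H3K36, kdm3b (4.96 TPM), for H3K9, kdm2aa (4.31 TPM), which binds unmethylated CpG and acts on H3K36, and kdm6al (2.48 TPM), for H3K27. KDM8, a Jumonji protein whose action on histones is disputed, had 0.737 TPM.

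The least steady member was SETD3. Its residual SD was 1.15, at percentile 94.9 of all genes tested, closely followed by the weakly expressed NSD2 with 1.13, whereas KDM6B had 0.82 and SMYD5 and SUV39H1 (ENSDARG00000055753) both had 0.80. NSD2, KDM6B and SUV39H1 are given for their spread, after it was seen. SETD3 took 2.76% to 33.1% of the summed TPM of the family in single fish. The lowest, median and highest levels were 22.2, 57.4 and 215 CPM in OF-training fish, 20.6, 31.6 and 171 CPM in NF-training fish, 13.9, 26.7 and 212 CPM in OF-control fish, and 25.2, 29.7 and 38.0 CPM in NF-control fish. High fish of both sexes occurred in the OF-training and NF-training groups, a single high female occurred in the OF-control group, and no NF-control fish was high. The groups overlapped, and SETD3 passed the test in none of the comparisons.

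Training of normally fed fish, NF-training against NF-control, changed 1 of the 59 genes, or 1.69%, against 0.173% of all genes tested (0.0185% higher and 0.154% lower). This gene was DOT1L, which was lower. DOT1L methylates H3K79 on the body of transcribed genes and lacks the SET domain of the other writers. Its level was 0.827, 0.894 and 0.683 CPM in the NF-training males and 2.23, 1.02 and 0.886 CPM in the NF-training females. In the NF-control fish it was 2.82, 1.56 and 1.35 CPM in males and 1.90, 4.29 and 3.07 CPM in females. All NF-training fish except the first female lay below every NF-control fish. The log2 fold change was -1.23 (SE 0.24, adjusted p = 0.035 by edgeR's quasi-likelihood test), and it was -1.25 in males alone and -1.20 in females alone.

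The DOT1L call was narrow. The estimated counts behind it were between 11 and 124 per fish. In 10 of 24 fits that each left out 1 fish, namely without NF-training 2, 3, 4, 5 or 6, NF-control 2, 3 or 4, OF-control 3 or OF-training 5, the adjusted p of edgeR's test lay between 0.0505 and 0.109, while the log2 fold change stayed between -1.44 and -1.08 over all 24. Without NF-training 3 and NF-control 1, the females with the least vitellogenin, the log2 fold change was -1.25 and the adjusted p 0.0552. In bulk tissue, fewer cells of a type and less RNA per cell cannot be told apart. The 8 leukocyte markers found summed to 48.4 to 75.7 CPM in NF-training males, against 96.5 to 298 CPM in NF-control males, and the 9 exocrine pancreas markers to 234 to 443 CPM against 36.9 to 189 CPM. In females the leukocyte markers summed to 90.1 to 214 CPM in NF-training fish, against 78.5 to 125 CPM in NF-control fish. The exocrine pancreas markers in females summed to 2.73 to 118 CPM against 53.0 to 99.5 CPM. The 12 hepatocyte markers summed to 101400 to 131800 CPM in NF-training males, against 63980 to 111400 CPM in NF-control males. In females the hepatocyte markers summed to 69000 to 80570 CPM in NF-training fish, against 38420 to 80380 CPM in NF-control fish. None of these hepatocyte, leukocyte and exocrine pancreas markers was at 0 in every fish. The part of these cells in the result was not tested.

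**Figure D2:**
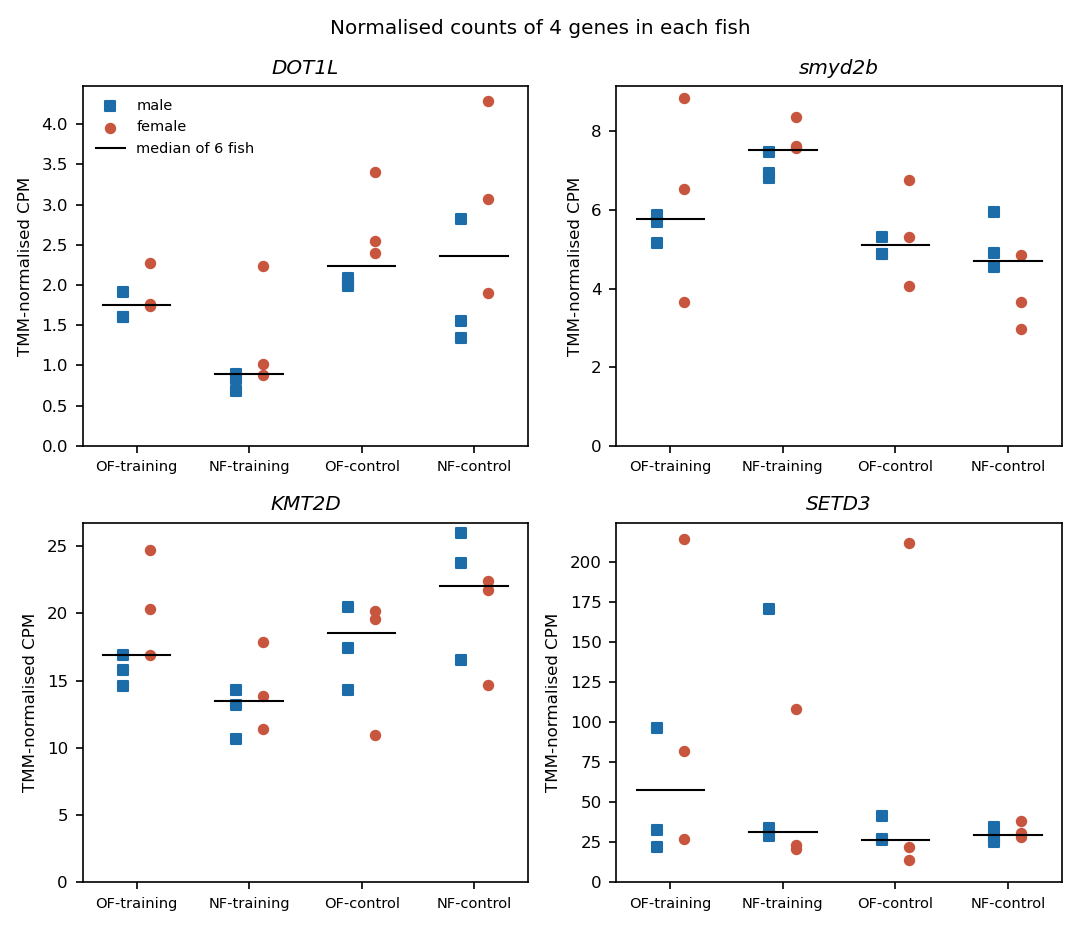
TMM-normalised CPM of DOT1L, smyd2b, KMT2D and SETD3 in each of 24 fish by group. Squares are males, circles are females and lines are medians of 6 fish. DOT1L is low and smyd2b high in the NF-training group, and SETD3 is high in single fish.

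smyd2b, a copy of the SMYD2 gene, stood out in the other direction without passing the test. Its lowest, median and highest levels were 6.81, 7.53 and 8.36 CPM in the NF-training group and 2.98, 4.70 and 5.96 CPM in the NF-control group. Hence the 6 NF-training fish lay above all 6 NF-control fish, which held for 0.129% of all genes tested. The log2 fold change was 0.72 (SE 0.18, adjusted p = 0.118 by edgeR). The other copy, SMYD2, was not among the genes with an unadjusted p under 0.05. smyd2b was chosen for this account after its values were seen.

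As a whole the family lay slightly lower after training of normally fed fish. The median log2 fold change of the 59 genes was -0.12, against 0.00 for all genes tested. Below 0 were 42 genes (71.2%, against 49.7% of all genes tested), and 17 were above. The genes were measured in the same fish and are not independent, so that these counts are a description without a test. At an unadjusted p under 0.05, 8 of 59 genes (13.6%) were found, 1 higher and 7 lower, against 11.1% of all genes, 5.25% higher and 5.89% lower. All 9 writers of H3K4 were below 0, with values between -0.63 and -0.05, and so were 5 of 6 writers of H3K36 and all 3 writers of H4K20. In contrast, 4 of 6 SMYD genes and 4 of 5 other SETD genes were above 0. Of the 4 erasers of H3K27, 3 were below 0, among them KDM6B at -0.82 (SE 0.41) and kdm6bb at -0.67 (SE 0.35). None of these classes had a member past the threshold by edgeR. The pattern was not particular to training. In OF-control against NF-control fish, 8 of 9 writers of H3K4, 6 of 6 of H3K36 and 2 of 3 of H4K20 were below 0. There, 5 of 6 SMYD genes and 4 of 5 other SETD genes were above 0. Both comparisons share the NF-control fish, so that the values of those 6 fish enter both. DESeq2 called 3 members in this comparison, DOT1L and KMT2D lower and smyd2b higher. The share of all genes that DESeq2 called is not set beside this count, so that it says nothing about the family as such.

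The largest of the H3K4 values was that of KMT2D. Its lowest, median and highest levels were 10.7, 13.5 and 17.9 CPM in NF-training fish and 14.7, 22.0 and 26.0 CPM in NF-control fish, which overlapped. The log2 fold change was -0.63 (SE 0.18, adjusted p = 0.181 by edgeR). KMT2D was not singled out by the rule for this comparison and was named after its values were seen.

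Overfeeding of untrained fish, OF-control against NF-control, changed none of the 59 genes by edgeR, and 0% of all genes tested were called. At an unadjusted p under 0.05, 3 genes were lower and 0 were higher (5.08%), against 11.3% of all genes, 6.69% lower and 4.59% higher. DESeq2 called 0 members as well. The smallest p was that of ezh1, the PRC2 writer that prevails in resting tissue. ezh1 had 2.12, 4.30 and 9.16 CPM as the lowest, median and highest level in OF-control fish and 2.93, 7.07 and 12.2 CPM in NF-control fish. The groups overlapped, with a log2 fold change of -0.82 (SE 0.28, unadjusted p = 0.00755, adjusted p = 0.308 by edgeR).

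Both copies of KMT2C, a writer of H3K4 at enhancers like KMT2D, were the other genes at this level. The weaker expressed copy (ENSDARG00000075560) had 5.70, 8.22 and 13.1 CPM in OF-control fish and 9.91, 12.4 and 15.6 CPM in NF-control fish. The log2 fold change was -0.51 (SE 0.20, adjusted p = 0.364 by edgeR). For the stronger copy (ENSDARG00000079312) it was -0.39 (SE 0.16, adjusted p = 0.369 by edgeR). The median of the family was -0.06, against 0.00 for all genes tested.

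Training of overfed fish, OF-training against OF-control, changed none of the 59 genes, against 0.00616% of all genes tested. At an unadjusted p under 0.05 there was 1 gene, which was lower, against 5.26% of all genes, 2.56% lower and 2.7% higher, and DESeq2 called 0. This was setdb1a, a copy of the H3K9 trimethylase SETDB1. It had 5.94, 8.97 and 15.4 CPM as the lowest, median and highest level in OF-training fish and 8.44, 13.5 and 15.4 CPM in OF-control fish, which overlapped, with a log2 fold change of -0.46 (SE 0.19, adjusted p = 0.916 by edgeR). The stronger copy of KMT2C (ENSDARG00000079312) had a log2 fold change of 0.33 (SE 0.16, unadjusted p = 0.0528, adjusted p = 0.916 by edgeR). DOT1L, which was lower after training of normally fed fish, had -0.38 here (SE 0.23, adjusted p = 0.937 by edgeR). Of the 9 writers of H3K4, all below 0 after training of normally fed fish, 6 were above 0 here. The median of the family was -0.024, against -0.003 for all genes tested.

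Overfeeding of trained fish, OF-training against NF-training, also changed none of the 59 genes by edgeR, with 0% of all genes called. At an unadjusted p under 0.05, 2 genes were higher and 1 was lower, or 5.08%, against 9.01% of all genes, 3.64% higher and 5.36% lower, and DESeq2 called 0. DOT1L had 1.60, 1.75 and 2.27 CPM as the lowest, median and highest level in OF-training fish and 0.684, 0.890 and 2.23 CPM in NF-training fish, with a log2 fold change of 0.83 (SE 0.24, adjusted p = 0.459 by edgeR). KMT2D had 0.43 (SE 0.18, adjusted p = 0.543 by edgeR). This comparison shares the NF-training fish with the first, so the DOT1L values of those 6 fish enter both.

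The interaction asks whether training acted differently in overfed and in normally fed fish. None of the 59 genes passed by edgeR, with 0% of all genes called, and 4 had an unadjusted p under 0.05 (6.78%), against 4.47% of all genes. DESeq2 called 0 members. KMT2D had the smallest p, with an interaction of 0.71 on the log2 scale (SE 0.26, unadjusted p = 0.0108, adjusted p = 0.999 by edgeR), followed by the stronger copy of KMT2C (ENSDARG00000079312) with 0.58 (SE 0.23, adjusted p = 0.999 by edgeR). For DOT1L it was 0.85 (SE 0.34, adjusted p = 0.999 by edgeR), so that the lower DOT1L level after training was not shown to depend on feeding. Over the family the median interaction was 0.13, against 0.00 for all genes tested.

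**Figure D3:**
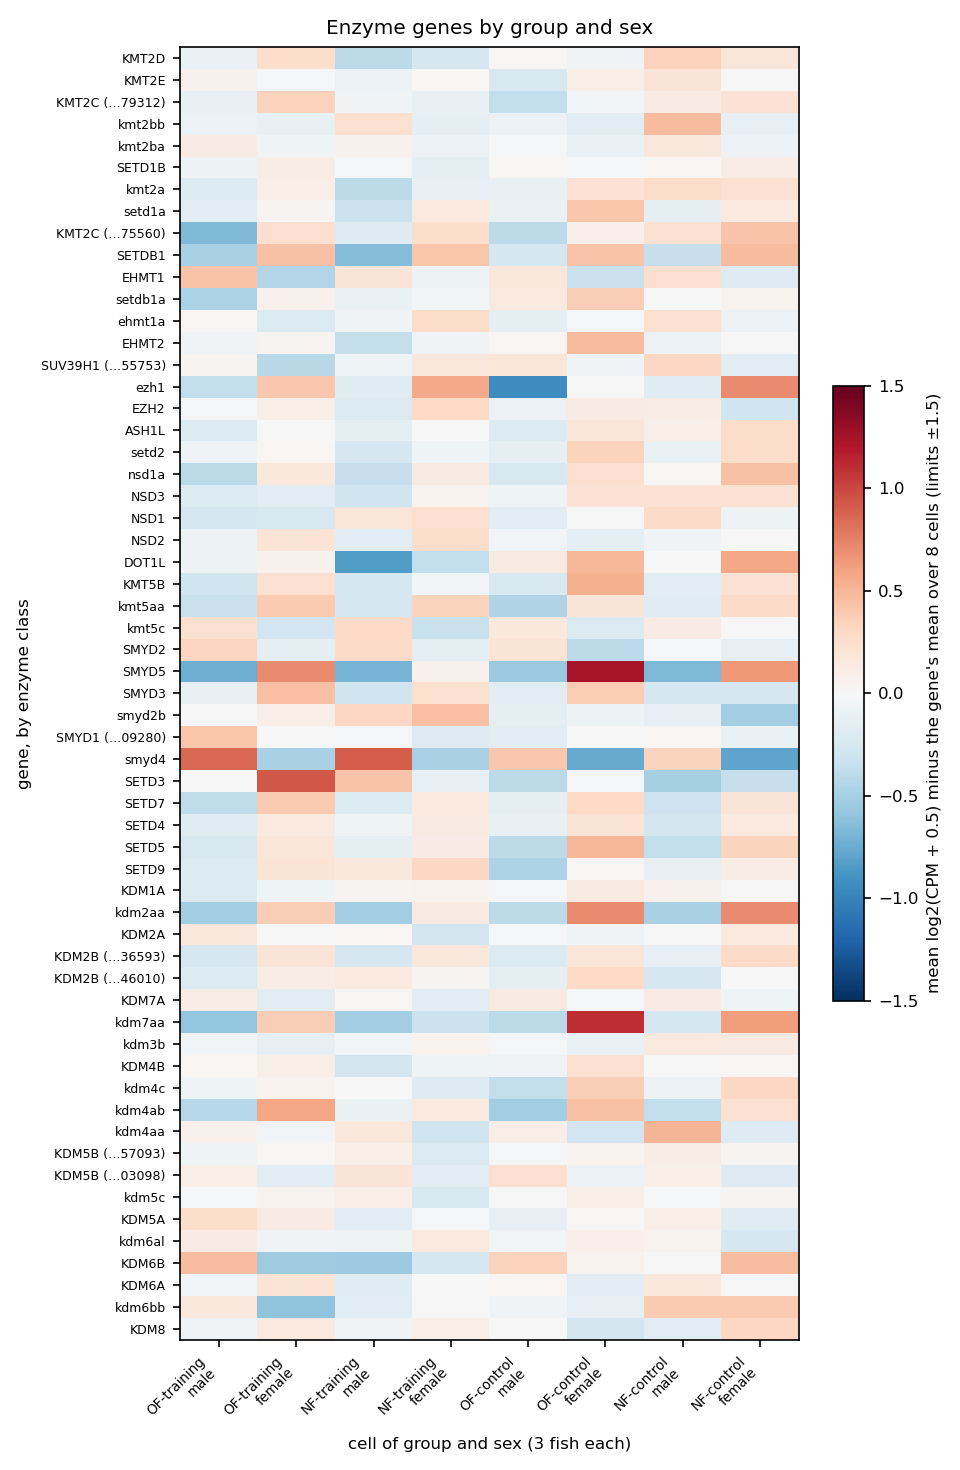
Mean log2(CPM + 0.5) of the 59 genes in the 8 cells of group and sex (3 fish each), after subtracting each gene's mean over the cells and ordered by enzyme class. Red is above and blue below that mean. Male and female columns alternate, and the rows of SMYD5, smyd4, kdm2aa and SETDB1 show the alternation clearly.

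Most differences in the family lay between the sexes. In male against female livers, 26 of 59 genes changed (44.1%), against 45.8% of all genes tested, so that their share was close to that of other genes. At an unadjusted p under 0.05 there were 32 (54.2%), against 52.4% of all genes. At the adjusted threshold, 7 of the 59 (11.9%) were higher in males, against 23.2% of all genes, and 19 (32.2%) were lower, against 22.6%. The median log2 fold change was -0.21 for the family and 0.06 for all genes. Writers accounted for most of it, with 5 higher and 15 lower of 38, whereas 2 of 21 erasers were higher and 4 were lower.

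The direction depends on the scaling, because vitellogenin fills a large share of the female libraries. With library size alone, 55 members were called higher and 0 lower in males, and the median of all genes moved to 1.44. With log2(TPM + 1) 34 were higher and 2 lower, and with log2(TPM + 0.1) 36 were higher and 2 lower, at medians of 0.36 and 0.65. "Higher" and "lower" are therefore meant relative to the other genes of the same library. By this measure the 26 called genes kept their side of the median of all genes under each of 5 other scalings. These scalings act mostly on all genes of a fish alike and move the median with them. This outcome was therefore largely fixed in advance and lends the directions no weight. Without the 2 females with the least vitellogenin, NF-training 3 and NF-control 1, 31 members were called, 24 of them among the 26 and in the same direction. For these alternative settings the share of all genes called is not set beside the counts, so that the counts say nothing about the family as such. The sum of the hepatocyte markers was 63980 to 141400 CPM in males against 27860 to 82150 CPM in females, and its part in these differences was not tested.

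**Figure D4:**
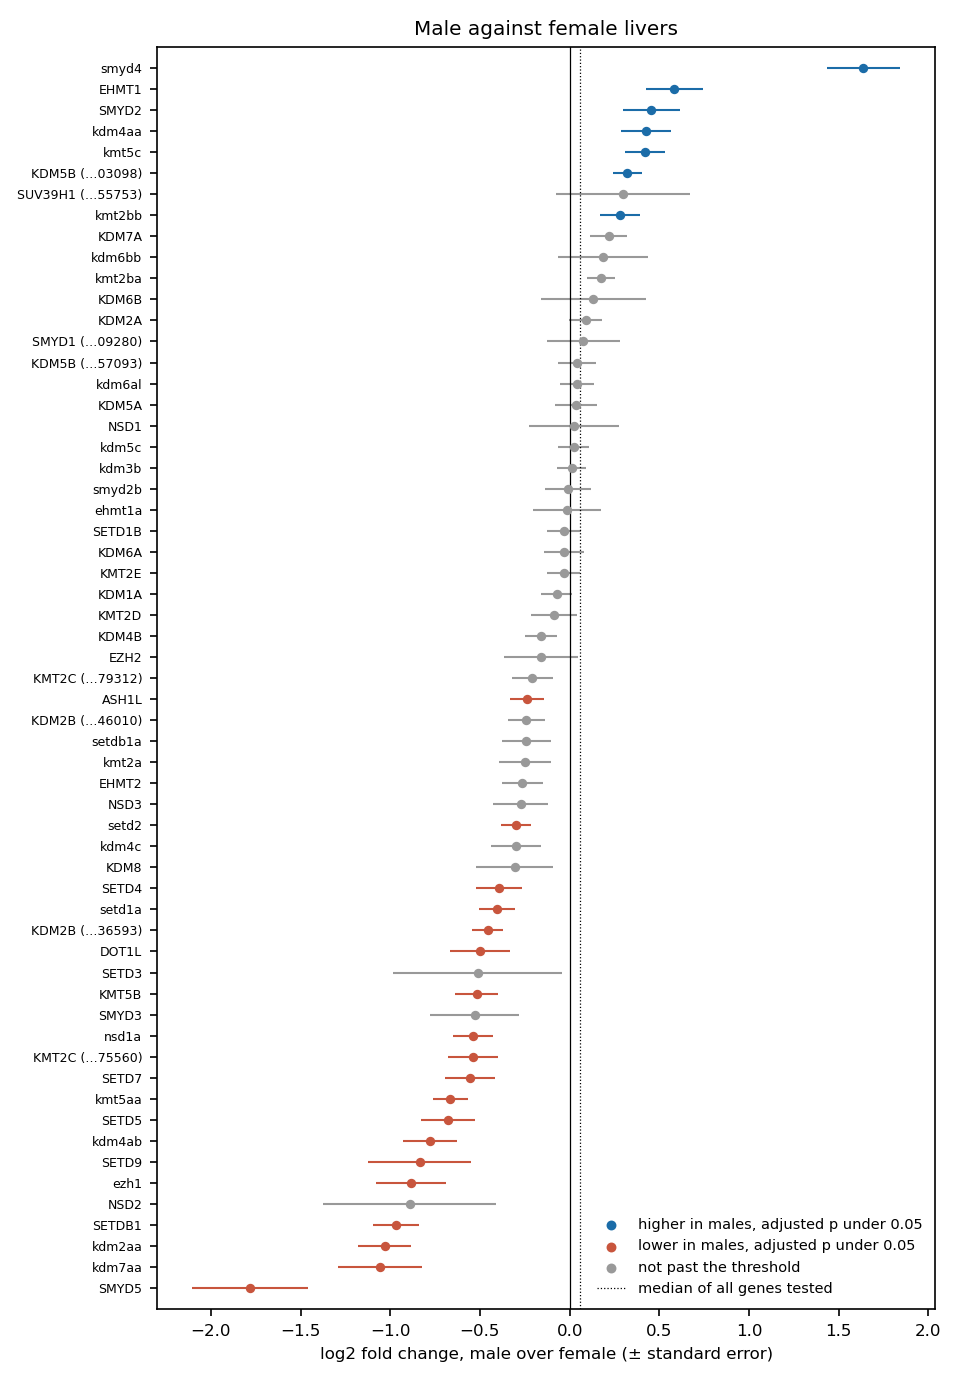
Log2 fold change of the 59 genes, male over female, with its standard error (edgeR, TMM scaling). Blue genes were higher and red genes lower in males at an adjusted p under 0.05, grey genes did not pass, and the dotted line is the median of all genes tested (0.06). With library size alone, that median was 1.44, and 55 genes were called higher and 0 lower. No share of all genes is set beside these counts, so that they say nothing about the family as such.

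The SMYD genes held both ends of the range. smyd4 had 1.497, 2.995 and 3.52 CPM as the lowest, median and highest level in males and 0.288, 0.891 and 1.45 CPM in females. All 12 males lay above all 12 females, as for 2.1% of all genes tested, and the log2 fold change was 1.64 (SE 0.20, adjusted p = 7.75e-07 by edgeR). The estimated counts of smyd4 were 2.7 to 41.1 in females and 49.9 to 125.2 in males, so that its female level rests on few counts. SMYD5 had 0.534, 1.12 and 1.91 CPM in males and 1.48, 3.17 and 9.34 CPM in females, with a log2 fold change of -1.78 (SE 0.32, adjusted p = 9.51e-05 by edgeR). SMYD2 was higher in males by 0.46 (SE 0.16, adjusted p = 0.0227 by edgeR), and without NF-control 5 it was not called (0.35, adjusted p = 0.0639 by edgeR). The other 3 SMYD genes did not pass. Levels of SMYD5 overlapped between the sexes.

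Among the writers of H3K9, 2 of 6 passed, in opposite directions. SETDB1, which trimethylates H3K9 and is known for silencing transposable elements, had 2.92, 3.45 and 6.10 CPM in males and 4.88, 6.80 and 9.57 CPM in females. The log2 fold change was -0.97 (SE 0.13, adjusted p = 1.90e-06 by edgeR). EHMT1, which places mono- and dimethyl marks on H3K9, had 6.35, 9.32 and 14.97 CPM in males and 4.21, 5.68 and 8.59 CPM in females. Its log2 fold change was 0.58 (SE 0.16, adjusted p = 0.0042 by edgeR).

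The H4K20 writers all passed. kmt5aa, the copy of the monomethylase KMT5A, had 4.001, 4.97 and 6.08 CPM in males and 5.63, 8.32 and 9.42 CPM in females (log2 fold change -0.67, SE 0.10). KMT5B, which adds further methyl groups, was lower by edgeR as well, with -0.52 (SE 0.12), and kmt5c, which does the same, was higher, with 0.42 (SE 0.11). The class therefore did not move as a unit. Of the PRC2 writers, ezh1 was lower in males, with 2.12, 4.32 and 8.74 CPM against 4.51, 8.27 and 12.4 CPM in females (log2 fold change -0.88, SE 0.20, adjusted p = 0.000773 by edgeR), and EZH2 was not called at -0.16 (SE 0.21).

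All 3 called writers of H3K36 were lower in males, namely nsd1a (-0.54), setd2 (-0.30) and ASH1L (-0.24), and the other 3 did not pass. The ASH1L call (adjusted p = 0.0438 by edgeR) was lost in 19 of 24 fits that left out 1 fish. Of the 9 writers of H3K4, the weaker copy of KMT2C (ENSDARG00000075560, -0.54) and setd1a (-0.40) were lower, and kmt2bb (0.28, SE 0.11, adjusted p = 0.0421 by edgeR) was higher. The kmt2bb call was lost without NF-training 3, 4 or 6, OF-control 1 or 3, NF-control 5 or 6, or OF-training 6, with the length trend removed (adjusted p = 0.147) and without both low-vitellogenin females (adjusted p = 0.0991). DOT1L was lower with -0.50 (SE 0.17, adjusted p = 0.0182 by edgeR). Of the 5 other SETD genes, 4 were lower, with SETD9 at -0.84 (SE 0.29), SETD5 at -0.68 (SE 0.15), SETD7 at -0.56 (SE 0.14) and SETD4 at -0.40 (SE 0.13). SETD9 rests on 2 to 18 estimated counts per fish. Leaving out a single fish ended the call of DOT1L in 3 fits (NF-training 1, OF-control 5, NF-control 2), of SETD9 in 3 (OF-training 2, OF-control 4, NF-control 3) and of SETD4 in 4 (OF-training 3, OF-control 5, OF-control 6, NF-control 2). SETD3, the fifth, was not called at -0.51 (SE 0.47).

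The called erasers were found among the KDM2 and KDM7, KDM4 and KDM5 classes. kdm2aa had 6.95, 9.23 and 12.4 CPM in males and 10.8, 18.1 and 32.1 CPM in females, with a log2 fold change of -1.03 (SE 0.15, adjusted p = 5.26e-06 by edgeR). kdm7aa, which acts on H3K9 and H3K27, had 1.02, 1.95 and 3.89 CPM in males and 1.52, 3.81 and 7.42 CPM in females, with -1.06 (SE 0.23, adjusted p = 0.000707 by edgeR). For a copy of KDM2B (ENSDARG00000036593) all 12 males, at 4.66 to 5.99 CPM, lay below all 12 females, at 6.03 to 9.34 CPM, as for 3.69% of all genes tested. Its log2 fold change of -0.46 (SE 0.09) was thus modest, and its males spanned a narrow range.

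The KDM4 erasers, which act on H3K9 and H3K36, included a copy in each direction. kdm4aa had 5.97, 9.58 and 12.9 CPM in males and 3.83, 6.74 and 9.47 CPM in females, with a log2 fold change of 0.43 (SE 0.14, adjusted p = 0.0164 by edgeR). kdm4ab had 4.51, 6.05 and 7.97 CPM in males and 5.38, 10.5 and 15.9 CPM in females, with -0.78 (SE 0.15, adjusted p = 0.000177 by edgeR). A copy of KDM5B (ENSDARG00000003098) was higher in males by 0.32 (SE 0.08, adjusted p = 0.0022 by edgeR). The KDM6 erasers of H3K27, KDM1A, kdm3b and KDM8 had no called member, with values between -0.31 and 0.19.

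Copies of the same gene could be compared within a fish, where no scaling between libraries enters. For 13 pairs of copies, set by symbol after the sex differences of single genes were known, the log2 ratio of estimated counts (with 0.5 added) was formed in each fish and compared between 12 males and 12 females by a two-sided permutation test with 100000 resamples. The balance between copies differed between the sexes in 6 pairs at a p adjusted over the 13 pairs under 0.05. The 6 pairs were KDM2A, KDM4A, KDM7A, SETDB1, EHMT1 and KDM5B. This share was close to that of pairs at large. Among 1506 pairs of copies set by symbol over all genes tested, 42.4% differed between the sexes by limma at an adjusted p under 0.05, against 5 of the 12 pairs of the family that the symbols matched (41.7%), KDM5B not being among the 5. The size was at least 0.5 in 54.6% of all pairs and in 6 of the 12 (50%). Kallisto divides reads that match both copies, so that the balance can be uncertain where copies are alike in sequence.

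The balance of the KDM4A pair shifted between the sexes. The log2 ratio of kdm4aa to kdm4ab was 0.59 ± 0.34 in males and -0.60 ± 0.60 in females (SD, n = 12 each), so that kdm4aa had more counts on average in males and kdm4ab in females. Counts are not corrected for transcript length, so that the sign of the ratio does not show which copy had more transcripts. The difference was 1.19 (permutation p = 2e-05, the smallest the resamples can give, adjusted p = 0.00013 over 13 pairs) and lay between 0.76 and 1.43 within the 4 groups. For KDM2A, the log2 ratio of kdm2aa to the copy named KDM2A was 0.13 ± 0.19 in males and 1.21 ± 0.41 in females (SD, n = 12 each). It differed by -1.09 (permutation p = 2e-05, adjusted p = 0.00013), between -1.16 and -0.999 within the 4 groups, and was the only pair of the 13 in which no male overlapped with a female, as for 4.98% of all pairs. The copy named KDM2A alone had a log2 fold change of 0.09 (SE 0.09, adjusted p = 0.454 by edgeR) between the sexes.

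For KDM7A, the log2 ratio of kdm7aa to the copy named KDM7A was -1.41 ± 0.45 in males and -0.15 ± 0.79 in females (SD, n = 12 each), a difference of -1.26 (permutation p = 0.0001, adjusted p = 0.00043). Within groups it lay between -1.89 and -0.46. For SETDB1, the log2 ratio of setdb1a to SETDB1 was 1.44 ± 0.35 in males and 0.71 ± 0.49 in females (SD, n = 12 each), a difference of 0.73 (permutation p = 0.00034, adjusted p = 0.0011). In the test of single genes by edgeR, the copies named KDM7A and setdb1a were not called, at 0.22 (SE 0.10) and -0.24 (SE 0.14).

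EHMT1 and KDM5B showed smaller shifts. The log2 ratio of ehmt1a to EHMT1 differed by -0.53 (permutation p = 0.0024, adjusted p = 0.0063), and that of the KDM5B copies (ENSDARG00000003098 to ENSDARG00000057093) by 0.27 (permutation p = 0.0099, adjusted p = 0.021). Both had the same direction in all 4 groups. The remaining 7 pairs did not pass, with differences of -0.51 (NSD1), -0.38 (SMYD2), -0.33 (KMT2C), -0.22 (KDM2B), -0.10 (KMT2B), 0.06 (KDM6A) and 0.10 (KDM6B). Without the 2 females with the least vitellogenin 7 pairs passed, NSD1 being the additional pair.

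**Figure D5:**
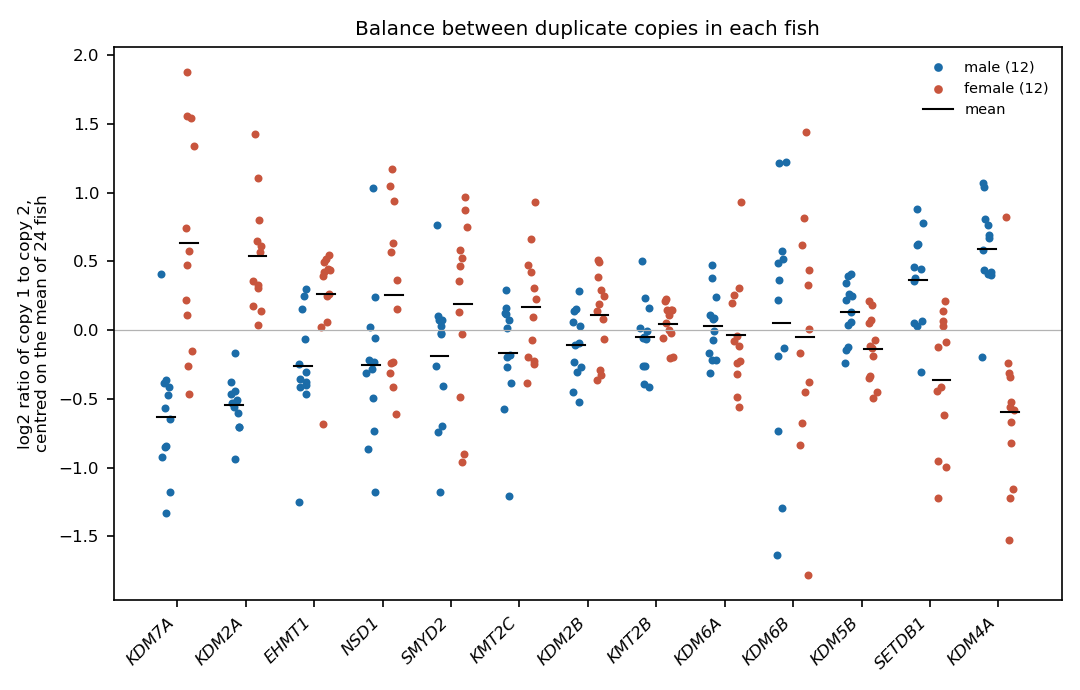
Log2 ratio of the estimated counts of 2 copies in each fish, centred on the mean of 24 fish for each pair, with males left (blue), females right (red) and lines at the means. Pairs are ordered by the difference between the sexes, from KDM7A (-1.26) to KDM4A (1.19).

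Training and overfeeding were also compared between the sexes. The effect of training in normally fed fish did not differ between males and females for any of the 59 genes by edgeR, with 0% of all genes called and 2 members at an unadjusted p under 0.05 (3.39%), both lower, against 7.47% of all genes, 5.54% lower and 1.93% higher. DESeq2 called 0 members. The 2 members were kdm6al, an eraser of H3K27, with a difference of -0.55 on the log2 scale (SE 0.25, adjusted p = 0.635 by edgeR), and EZH2, the PRC2 writer of dividing cells, with -1.17 (SE 0.56, adjusted p = 0.658 by edgeR). EZH2 had 1.38, 1.67 and 1.65 CPM in NF-training males and 2.12, 2.51 and 2.80 CPM in NF-training females. In NF-control fish it had 3.16, 1.24 and 2.28 CPM in males and 2.05, 1.82 and 0.768 CPM in females, so that the sexes overlapped there. The 13 proliferation marker genes found summed to 8.48 to 11.3 CPM in NF-training males and 11.1 to 111 CPM (median 13.3) in NF-training females. In NF-control fish these markers summed to 7.67 to 23.6 CPM in males and 7.24 to 50.2 CPM in females, and their part was not tested.

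The effect of overfeeding in untrained fish did not differ between the sexes for any member by edgeR either, with 0% of all genes called. DESeq2 called 0 of the 54 members it gave an adjusted p. At an unadjusted p under 0.05, 1 member was lower and 0 were higher, against 5.57% of all genes, 2.61% lower and 2.96% higher. It was KMT2E, a relative of the H3K4 writers whose own enzyme activity is in doubt, with -0.58 (SE 0.25, unadjusted p = 0.029, adjusted p = 0.862 by edgeR). KMT2E had 10.9, 10.7 and 12.1 CPM in OF-control males and 16.8, 12.2 and 13.8 CPM in OF-control females, against 18.8, 13.6 and 14.1 CPM in NF-control males and 12.3, 13.2 and 14.1 CPM in NF-control females. KDM8 followed with 1.23 (SE 0.59, unadjusted p = 0.0503, adjusted p = 0.895 by edgeR), at levels of 0.200 to 1.06 CPM in these groups.

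The partners of the enzymes and the supply of methyl groups were looked at in 5 lists. No gene of any list was called by edgeR in the training, feeding or interaction comparisons. Male against female, where 23.2% of all genes were higher and 22.6% lower, 2 of 14 tested partners of the H3K4 writers were higher and 3 were lower, and MEN1, with 3.41, 10.6 and 42.2 CPM in males and 2.95, 4.78 and 7.62 CPM in females, was among the higher ones (log2 fold change 1.42, SE 0.27), as was RBBP5 (0.33, SE 0.08). WDR5, a core subunit shared by these complexes, was lower at -1.19 (SE 0.13), with 3.79 to 7.35 CPM in males and 8.31 to 20.7 CPM in females. psip1a was lower at -1.42 (SE 0.28), on levels of at most 2.25 CPM, and hcfc1b at -0.38 (SE 0.11). For overfeeding of untrained fish, MEN1 had 1.41 (SE 0.38, adjusted p = 0.232 by edgeR), about as large as between the sexes. psip1a had -0.81 there (SE 0.39, adjusted p = 0.44 by edgeR). These 2 feeding values, neither of them called, are given after they were seen.

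The smaller lists each had lower genes only. In PRC2, 1 of 5 was lower, PHF19 (-1.26, SE 0.37). Among H3K9 partners and readers 1 of 3 was lower, cbx3b (-0.36, SE 0.10). Of the partners of LSD1, 2 of 4 were lower, RCOR1 (-0.88, SE 0.16) and ZMYM2 (-0.58, SE 0.13). With library size alone WDR5, hcfc1b, PHF19, cbx3b, RCOR1 and ZMYM2 had values above 0, between 0.01 and 1.04, and psip1a stayed below 0 at -0.11. The median of all genes was 1.44 in that scaling, and all of these genes lay below it. With TPM, hcfc1b, cbx3b and ZMYM2 were above 0 as well, between 0.12 and 0.39. They lay below the medians of all genes, 0.36 with log2(TPM + 1) and 0.65 with log2(TPM + 0.1). The place of these partners relative to the median was largely fixed, since the scalings act mostly on all genes of a fish alike.

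The methyl donor cycle, which makes S-adenosylmethionine and recycles what is left of it, was the longest of the lists, with 7 higher and 5 lower of 18 in males, against 23.2% higher and 22.6% lower of all genes. BHMT, which remethylates homocysteine with betaine, had 2442, 4297 and 5766 CPM in males and 118, 868 and 1841 CPM in females (log2 fold change 2.32, SE 0.34). GNMT, the most abundant consumer of S-adenosylmethionine in liver, had 162, 262 and 315 CPM in males and 29.7, 70.7 and 107 CPM in females (1.81, SE 0.18). In both genes all males lay above all females, as for 2.1% of all genes tested.

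Further genes of the cycle were called in both directions. MAT1A, the liver enzyme that makes S-adenosylmethionine, was higher in males at 0.90 (SE 0.16), and SHMT1, which loads folate with carbon from serine, at 1.36 (SE 0.18). MTR and MTRR, which carry out remethylation with folate, were lower at -1.40 (SE 0.20) and -0.94 (SE 0.15). BHMT, MAT1A, MTR and MTRR were named after their values were seen. BHMT, GNMT, MAT1A and SHMT1 stayed above 0 under 5 other scalings. In each of these the median of all genes was above 0, between 0.02 and 1.44. Staying above 0 was therefore largely fixed in advance and lends these directions no weight. MTR and MTRR were above 0 with library size alone, at 0.09 and 0.55. The median of all genes was 1.44 with library size alone, and MTR and MTRR lay below it, which was largely fixed in advance as well. The feeding and training comparisons had median log2 fold changes between -0.13 and 0.18 for this list.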

How the data were processed

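RNA of 24 zebrafish livers was sequenced on a BGISEQ-500. Per the labels, the authors trimmed reads with Trim Galore 0.6.4 and used kallisto (version 0.4.6 in the submitters' processing notes) with GRCz11. The step from transcripts to genes is not given in the sources used here. The authors deposited estimated counts per gene, not normalised, and TPM, which correct for transcript length and add up to 1000000 in each fish. Symbols were found for 29201 of 32520 Ensembl identifiers. No 2 fish had identical values.

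Estimated counts were rounded to whole numbers, which differs from raw counts, filtered with filterByExpr by group (minimum count 10) and scaled by TMM. edgeR 4.0.16 (R 4.3.3) fitted group and sex over 24 fish, and 8 cells of group and sex for the sex interactions. The quasi-likelihood test was used with Benjamini-Hochberg adjustment over 16223 genes. The SE is the log2 fold change divided by the square root of F. Depth was 19315642 to 21399321 counts per fish, but vitellogenin leaves females fewer counts for other genes, so that values of weakly expressed genes are less precise in females. The steps were tested on simulated data.

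Genes are named by a rule: members past the threshold in a training, feeding or interaction comparison (otherwise the 2 with the smallest p), the 10 largest called in each direction between the sexes, the 5 with the highest TPM and the highest of each class, the other copy of a named gene, and those at the edge of the count rule. The members, classes, partner lists and pairs of copies were chosen with earlier results of these data known. Class and partner lists are described by counts and medians, without a test.

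Alternatives were no sex term, a replicate block, the 12 fish of a comparison, DESeq2 1.42.0, limma 3.58.1 voom, library size or DESeq2 size factors, vitellogenin left out, leaving low counts in or asking for 10 counts on average, limma on log2(TPM + 1) and log2(TPM + 0.1), removal of a trend with transcript length, each sex or group alone, and each fish left out. Leaving out the 2 females with under 50% vitellogenin, and the alternatives for the copy ratios, were added after seeing the data. No sequences or coordinates are given. A gene of the methyl donor list is not reported here by name. To give the share of pairs that differ at large, log2 ratios were also formed for all pairs of tested genes with equal symbols or symbols differing in a final a or b, and tested by limma, after seeing the data.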

Additional observations from a re-analysis of the deposited data

Results flagged for a closer look

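The check took 12 genes, namely SETD3, smyd2b and those named by rule in the training, feeding and interaction comparisons, sex interactions included. The highest or lowest of the 6 fish was compared with the others of its group by Dixon's ratio. Of 48 groups, 5 held a fish that stood apart at the 95% level. For genes not chosen by their values, chance gives about 1 in 20, or 2.4. SETD3 was the least steady member, smyd2b was chosen after its values were seen, and each group held both sexes. The 5 and the 2.4 can therefore not be set against each other. SETD3 reached 212 CPM in OF-control female 4, against 13.9 to 41.4 CPM in the other 5 fish of the group. DOT1L was 2.23 CPM in NF-training female 1, against 0.683 to 1.02 CPM in the other 5, and without this fish the log2 fold change of training in normally fed fish was -1.44 (adjusted p = 0.00448 by edgeR). KMT2E was 11.3 CPM in OF-training female 3, against 13.7 to 14.2 CPM, and 18.8 CPM in NF-control male 4, against 12.3 to 14.1 CPM. KDM8 was 1.099 CPM in NF-training female 3, the female with the least vitellogenin, against 0.446 to 0.674 CPM.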

How the results depend on the processing

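DOT1L was the only member called after training of normally fed fish, and 0 members were called without the sex term, with the 12 fish of the comparison alone, with library size alone, without a filter, in females alone, in males alone and without the 2 females with under 50% vitellogenin. The log2 fold change of DOT1L was between -1.25 and -1.20 in these fits, with adjusted p of 0.148, 0.266, 0.0801, 0.0529, 0.223, 0.258 and 0.0552 by edgeR. DESeq2 called 3 members, smyd2b higher and DOT1L and KMT2D lower, with no share of all genes set beside this count. When each fish was left out in turn, 0 to 1 members were called in this comparison and 24 to 30 between the sexes, where 5 higher and 15 lower genes were called in every fit. 6 to 7 of the 13 pairs of copies passed. The other 6 comparisons had 0 called members in every leave-one-out fit. No share of all genes is set beside the counts of these fits.

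With the replicate number as a block, 0 members were called after training of normally fed fish (DOT1L -1.22, adjusted p = 0.0723 by edgeR) and 25 between the sexes, without kmt2bb (0.21, adjusted p = 0.234 by edgeR) and DOT1L and with kdm4c in addition. No share of all genes is set beside these counts. Same-numbered fish correlated between -0.215 and 0.377 over the pairs of groups, so that the numbers were not treated as pairs. In the groups taken singly, 3 (NF-control), 2 (NF-training), 10 (OF-control) and 8 (OF-training) members were called between the sexes, with 3 males and 3 females each. In this order the shares were 5.08%, 3.39%, 16.9% and 13.6% of the family. Among all genes tested they were larger, at 14.2%, 10.1%, 20.6% and 18.7%.

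With library size alone, 55 members were called between the sexes, 55 higher and 0 lower. The share of all genes called is not set beside this count, so that it says nothing about the family as such. The reversed log2 fold changes were 0.43 for kdm7aa, 0.43 for kdm2aa, 0.47 for SETDB1, 0.55 for ezh1, 0.48 for SETD9, 0.69 for kdm4ab, 0.81 for SETD5, 0.74 for kmt5aa and 0.89 for SETD7. With log2(TPM + 1) ezh1 was 0.0369 and SETD7 0.0946, and with log2(TPM + 0.1) ezh1 was 0.043 and SETD7 0.1023. The median of all genes was 1.44, 0.36 and 0.65 in these scalings, against 0.06 with TMM, and each of these genes lay below it. Their place relative to the median was largely fixed, since the scalings act mostly on all genes of a fish alike. Counts of few reads, under 20 for SETD9, limit what can be said of single weakly expressed members.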
